A study of Mus musculus with 6 samples.

Results

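The genes described here take up synaptic glutamate into astrocytes, turn it into glutamine and move glutamine across membranes. There were 9 of them among the 45777 genes listed, picked out by gene symbol as a named set: the glutamate transporters Slc1a2, Slc1a3 and Slc1a1, glutamine synthetase (Glul), the carriers Slc38a3, Slc38a1 and Slc38a2, and the enzymes Glud1 and Got1. All 9 had reads in each of the 6 samples. RNA sequencing was carried out on astrocytes sorted from dissociated mouse brains by tdTomato fluorescence, with 3 samples from mice given streptozotocin (STZ), which kills pancreatic beta cells and makes mice hyperglycemic, and 3 from normoglycemic mice given citrate vehicle. The labels give the genotype of all samples as WT. Per the study's methods, mice of both groups carried Aldh1l1-CreERT2 and a floxed-stop tdTomato allele, so that 5 days of tamoxifen marked cells in which the astrocyte promoter Aldh1l1 was active. The injection was given once at 8 weeks of age (150 mg/kg STZ or vehicle), brains were taken 21 days later, and each sample was a pool of 3 mice. Spread between samples is therefore spread between pools.

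Astrocytes are known to clear most glutamate released at excitatory synapses, through the sodium-driven carriers GLT-1 (Slc1a2) and GLAST (Slc1a3). Glutamine synthetase joins ammonia to the glutamate, glutamine leaves the astrocyte mainly by SNAT3 (Slc38a3), and neurons take it up and make glutamate from it again. Part of the glutamate is instead oxidized in mitochondria after conversion to 2-oxoglutarate by glutamate dehydrogenase (Glud1) or by transaminases such as Got1. The comparison of STZ with vehicle asked whether hyperglycemia altered these transcripts in astrocytes.

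The label of the cells was checked against marker genes. All 10 astrocyte markers were detected, and their summed level was 4917 to 5861 FPKM (fragments scaled to transcript length and to mapped reads) in the vehicle and 5257 to 5735 FPKM in the STZ samples. Neuronal markers were low, with a summed level of 26.0 to 55.7 FPKM over 9 genes. The vesicular glutamate transporters Slc17a6, Slc17a7 and Slc17a8 were each at 0.276 FPKM or less in every sample. Markers of choroid plexus and ependyma (4352 to 13060 FPKM), of microglia (300 to 431 FPKM) and of the oligodendrocyte lineage (382 to 1287 FPKM) were present in all samples, with ranges of vehicle and STZ that overlapped. Most of the choroid plexus and ependyma sum was a single gene, Ttr (4140.63 to 12522.5 FPKM). Markers of endothelium were not equal between the groups, and their values stand beside the carriers below. In such bulk samples fewer cells of a type and less RNA per cell cannot be told apart.

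Of the 9 genes, 7 have an entry in the RefSeq promoter table (assembly GRCm38.p6, the build behind mm10); Slc38a1 and Slc38a3 are the other two. The 250 bases before the start were searched on both strands for 5 motifs. The stretches of 4 genes are shown, those of the most abundant transporter and of glutamine synthetase, that of Slc38a2, whose groups stood furthest apart by p among the 9, and that of Got1. They are written 5′ to 3′ on the gene's strand, and capitals mark motif matches.
Slc1a3: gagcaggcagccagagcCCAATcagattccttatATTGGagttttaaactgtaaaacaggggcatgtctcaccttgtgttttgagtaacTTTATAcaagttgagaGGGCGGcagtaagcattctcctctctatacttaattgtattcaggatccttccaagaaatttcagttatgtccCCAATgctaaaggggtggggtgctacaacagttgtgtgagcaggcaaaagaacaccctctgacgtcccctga
Glul: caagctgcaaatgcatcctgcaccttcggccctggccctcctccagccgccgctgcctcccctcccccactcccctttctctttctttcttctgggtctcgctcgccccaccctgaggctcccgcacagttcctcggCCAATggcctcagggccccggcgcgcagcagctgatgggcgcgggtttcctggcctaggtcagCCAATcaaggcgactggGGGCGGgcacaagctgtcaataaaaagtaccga
Slc38a2: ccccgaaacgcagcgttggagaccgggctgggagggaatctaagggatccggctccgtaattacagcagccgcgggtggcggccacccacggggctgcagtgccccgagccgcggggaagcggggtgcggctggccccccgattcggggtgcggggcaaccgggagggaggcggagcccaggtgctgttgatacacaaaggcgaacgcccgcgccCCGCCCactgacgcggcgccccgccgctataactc
Got1: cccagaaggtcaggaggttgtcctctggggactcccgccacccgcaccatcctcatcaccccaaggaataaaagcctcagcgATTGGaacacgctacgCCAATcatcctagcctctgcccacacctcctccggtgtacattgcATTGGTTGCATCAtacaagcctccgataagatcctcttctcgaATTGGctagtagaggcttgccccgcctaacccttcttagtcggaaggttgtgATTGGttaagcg
They lie at chr15:8710808-8711057 (Slc1a3, minus strand), chr1:153899679-153899928 (Glul, plus strand), chr15:96699729-96699978 (Slc38a2, minus strand) and chr19:43524606-43524855 (Got1, minus strand).

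The amino acid response core, TGATGNAA, a composite motif known to be bound by ATF4 with a C/EBP partner, matched 1 of the 7 stretches, that of Got1, where it stands as TTGCATCA on the other strand and directly follows a CCAAT box. It was found in 3.45% of 32851 mouse promoter stretches of this length. The CCAAT box matched Slc1a3, Glul and Got1, with 5 matches in Got1 alone, against 33.8% of all stretches. The GC box, GGGCGG, matched 5 of the 7 (Slc1a3, Glul, Slc1a1, Glud1 and Slc38a2) against 32.7%. The letters of the TATA box, TATAAA, matched Slc1a3 only on the other strand, at -161 from the start, against 12.4%. The E-box, CACGTG, matched none of the 7 against 6.02%. Slc38a2, the amino acid carrier of the set known to be induced when amino acids are scarce, held a single GC box and no response core within this window. Base composition also varied, from 44.8% G and C in Slc1a3 and Slc1a2 to 72.0% in Slc38a2 and 82.0% in Glud1. The entry for Slc1a2 begins 48199 bases inside the gene and is not shown.

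On the scale of FPKM, which divides by transcript length, the 9 genes covered a wide range of levels. Slc1a3 was the most abundant, with 1361 ± 68.7 FPKM (SD over all 6 samples), and ranked 26 among all genes listed. Glul followed with 353 ± 30.6 FPKM, and its range was apart from those of both neighbors in the order. Slc38a3 (245 ± 36.3 FPKM) and Slc1a2 (214 ± 8.31 FPKM) came next and overlapped, Slc38a3 being the higher in 5 of 6 samples. Glud1 was at 115 ± 9.60 FPKM and Got1 at 36.9 ± 6.90 FPKM, each apart from its neighbors in the order. Slc38a2 (19.0 ± 6.60 FPKM) and Slc38a1 (10.4 ± 2.04 FPKM) had overlapping ranges, although Slc38a2 was the higher within each of the 6 samples. Slc1a1, the carrier EAAT3 that is known mainly from neurons, was lowest with 1.22 ± 0.754 FPKM.

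**Figure D1:**
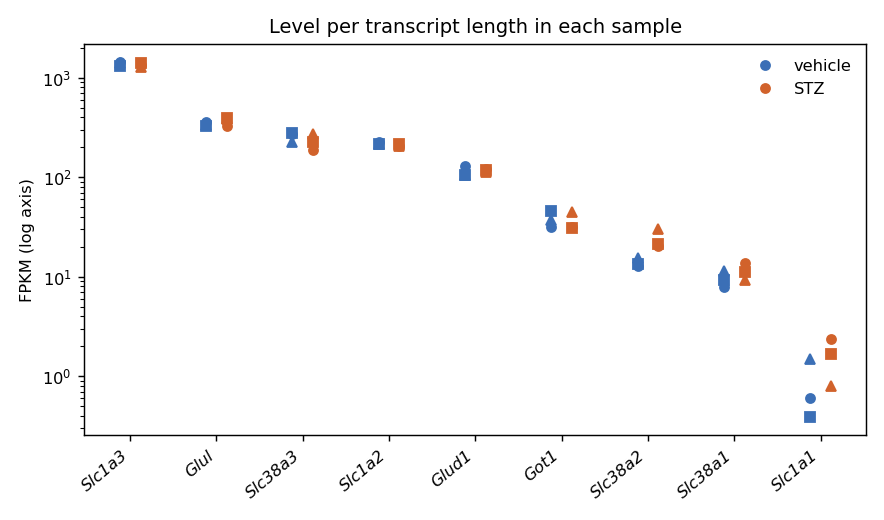
FPKM on a log axis (vertical) of the 9 genes (horizontal, ordered by mean), 1 point per sample, vehicle in blue and STZ in orange, with circle, square and triangle for replicates 1, 2 and 3. The means run from 1361 FPKM for Slc1a3 to 1.22 FPKM for Slc1a1, and the groups lie on top of each other for most genes but not for Slc38a2.

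Between STZ and vehicle, no gene of the 9 passed the threshold of edgeR's quasi-likelihood test (a fold change above 1.5 with a Benjamini-Hochberg adjusted p below 0.05), which 5 of the 22337 genes tested passed (0.0224%). At an unadjusted p under 0.05 there were 2 of the 9, against 11.3% of all genes tested, with Slc38a2 higher in STZ (5.63% of all genes were) and Slc38a3 lower (5.65%). By DESeq2 at the same threshold 1 of the 9 was called, Slc38a2, against 1.05% of all genes. Groups did not overlap in normalized CPM (read counts scaled to the size of the library) for 3 of the 9 against 18.5% of all genes. One was higher in STZ, Slc38a2 (8.64% of all genes), and 2 were lower, Slc1a2 and Slc38a3 (9.85%). The log2 fold change was above 0 for 4 of the 9 and for 51.9% of all genes, and its median was -0.01 against 0.01.

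**Figure D2:**
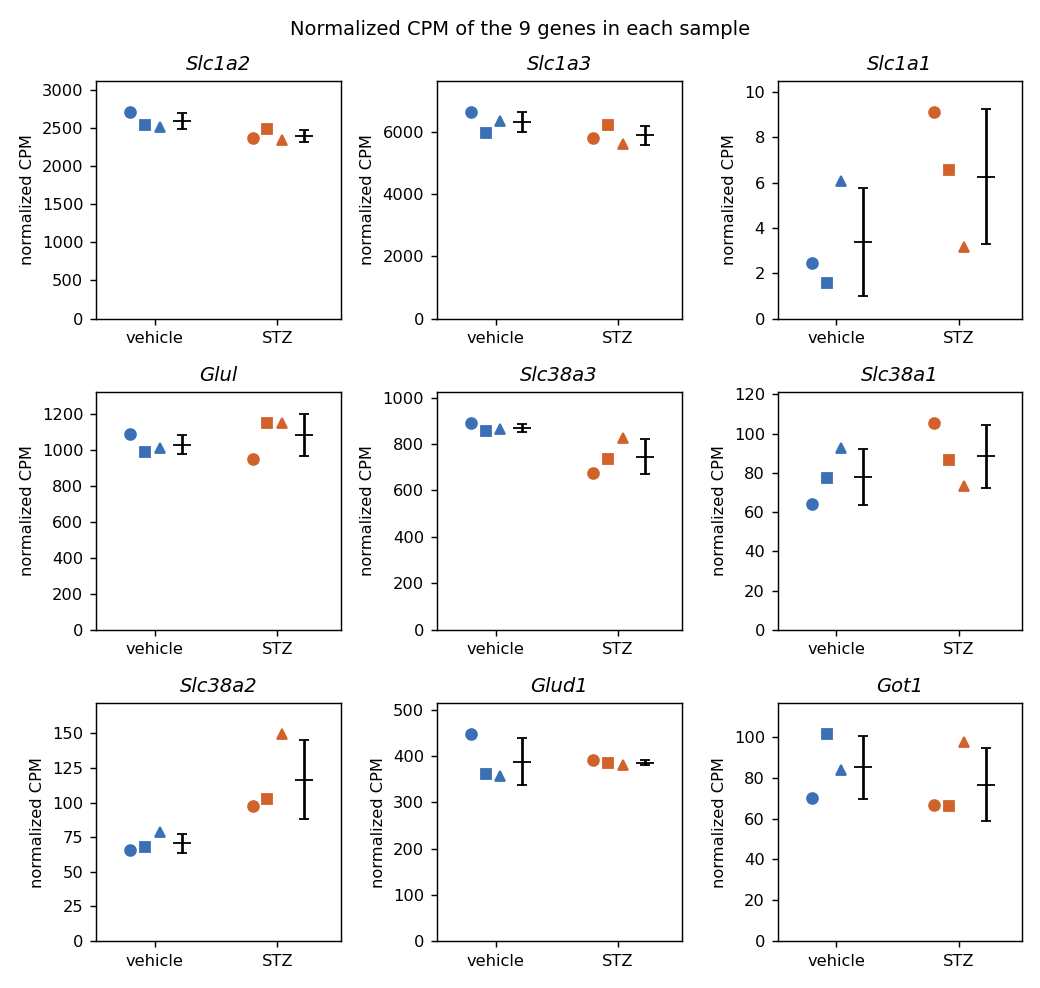
Normalized CPM (vertical axes from 0) of each of the 9 genes in the vehicle (blue) and STZ (orange) samples, with circle, square and triangle for replicates 1, 2 and 3 and a black bar for the mean ± SD of 3 samples. The 3 STZ samples sit above the 3 vehicle samples for Slc38a2, and below them for Slc38a3 and, by a small margin, Slc1a2.

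Among the glutamate transporters, Slc1a2 (chr2:102658239-102790784, plus strand) had 2706, 2539 and 2513 normalized CPM in the vehicle and 2362, 2479 and 2339 in the STZ samples. All 3 STZ samples were below the vehicle samples, by a margin between the nearest samples that was small beside the spread within either group. The log2 fold change was -0.11 ± 0.09 (SE; 95% interval -0.33 to 0.10), with an edgeR adjusted p of 0.667. In FPKM the groups overlapped, with 228, 214 and 214 in vehicle and 208, 218 and 204 in STZ. The noncoding genes LOC115489466 (7792 to 11189 counts) and Gm13872 (1555 to 2043 counts) overlap Slc1a2, which had 131782 to 145088 counts itself, and whether the counting used strand is not stated.

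Slc1a3 (chr15:8634124-8710807, minus strand) had 6629, 5964 and 6337 normalized CPM in vehicle and 5810, 6213 and 5618 in STZ. The groups overlapped, with the second STZ sample between vehicle samples. Its log2 fold change was -0.10 ± 0.11 (95% interval -0.37 to 0.16, edgeR adjusted p = 0.768). For neither of the abundant transporters did the interval reach a 1.5-fold change in either direction.

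The balance between both transporters was nearly equal in all samples. The FPKM ratio of Slc1a2 to Slc1a3 was 0.158, 0.163 and 0.154 in vehicle and 0.155, 0.153 and 0.161 in STZ. Its difference of -0.01 on the log2 scale was smaller than the SD within groups of 0.0398 (two-sided exact permutation test, p = 0.6, where 3 against 3 samples cannot go below 0.1). Slc1a3 made up 86.3% ± 0.321 (SD, n = 3) of the summed FPKM of the 3 transporters in vehicle and 86.4% ± 0.272 in STZ, and Slc1a2 13.7% ± 0.353 and 13.5% ± 0.304. Among 7934 genes with at least 20 CPM, Slc1a2 ranked 33 by likeness to the profile of Slc1a3 over the 6 samples (root mean square difference 0.0350 on the log2 scale), and Slc1a3 ranked 49 by likeness to Slc1a2. Among the profiles most like that of Slc1a2 were those of Mtmr3 (0.0168) and Ppp2r5e (0.0175), and the closest to Slc1a3 were those of Ctso, Ddost and Mtmr3 (0.00850 to 0.0211). Such likeness is over 6 libraries of which all genes share the depth and scaling. Each profile was centred on its mean, so genes that vary little are close whatever the order of their samples. The ranks are not correlations.

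Slc1a1 (chr19:28835135-28913960, plus strand) had 2.46, 1.58 and 6.07 normalized CPM in vehicle and 9.12, 6.55 and 3.15 in STZ. The groups overlapped widely, the third vehicle sample lying above the third STZ sample. The log2 fold change of 0.89 ± 0.55 had an interval from -0.39 to 2.17 (edgeR adjusted p = 0.567). That interval includes both no change and a 1.5-fold difference. Single samples moved the value: it was 0.52 without the first STZ sample, 0.55 without the second vehicle sample and 1.62 without the third vehicle sample, with edgeR adjusted p of 0.821, 0.788 and 0.289.

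Glul (chr1:153899929-153909723, plus strand), the enzyme that makes glutamine from glutamate, had 1087, 988 and 1012 normalized CPM in vehicle and 947, 1147 and 1148 in STZ. The first STZ sample was the lowest of the 6 and the other two STZ samples the highest. Its log2 fold change was 0.07 ± 0.10 (95% interval -0.17 to 0.31, edgeR adjusted p = 0.831), so the interval did not reach a 1.5-fold change. Relative to Slc1a2 in the same sample, Glul FPKM was 1.56, 1.52 and 1.56 in vehicle and 1.57, 1.80 and 1.90 in STZ. These ratios did not overlap between the groups in FPKM, although the first STZ sample lay close to the vehicle samples. The difference of 0.18 on the log2 scale had p = 0.1 in a two-sided exact permutation test, the smallest that this design allows, and 0.3 after Benjamini-Hochberg adjustment over the 3 ratios tested. From counts in place of FPKM the same difference had p = 0.3 in the exact permutation test, so the groups were no longer apart. The profiles closest to that of Glul were those of Zfp800, Celf2 and Taf8 (0.0233 to 0.0253), while Slc1a2 and Slc1a3 ranked 2091 and 2229.

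**Figure D3:**
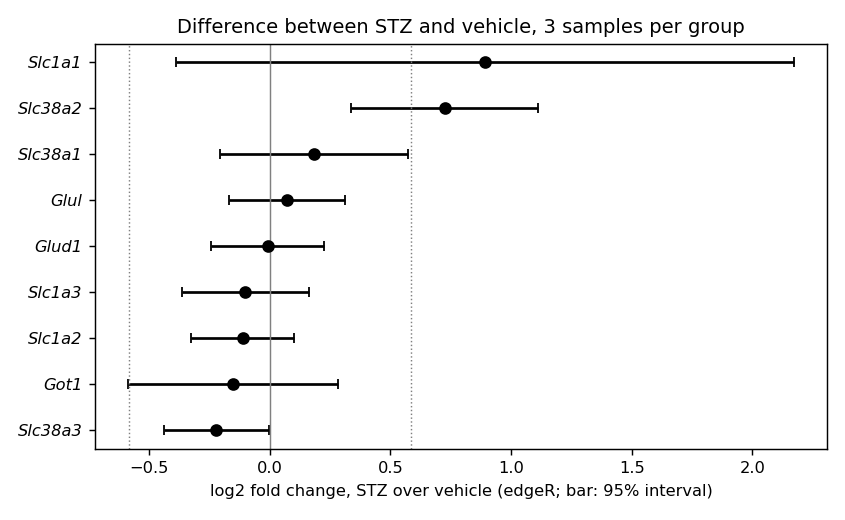
Log2 fold change of STZ over vehicle (horizontal) for the 9 genes (vertical) by edgeR, with 3 samples per group, bars for the 95% interval and dotted lines at a 1.5-fold change in each direction. The interval of Slc38a2 lies above 0, from 0.34 to 1.11, that of Slc38a3 lies just below 0, from -0.44 to -0.0039, and the other 7 span 0.

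Among the carriers of glutamine, Slc38a2 (SNAT2, chr15:96687392-96699728, minus strand), which takes small neutral amino acids into cells with sodium, had 65.4, 67.7 and 78.5 normalized CPM in vehicle and 97.7, 102.5 and 149.4 in STZ. All 3 STZ samples were above the vehicle samples, replicate 3 by the widest margin. The mean was 70.5 ± 6.99 in vehicle and 117 ± 28.6 in STZ (SD, n = 3), a fold change of 1.65 (95% interval 1.26 to 2.16). On the log2 scale this was 0.72 ± 0.17, with an unadjusted p of 0.00284 that ranked 244 among all genes tested and an edgeR adjusted p of 0.258. By DESeq2 the adjusted p was 0.00506. Over 14 other settings of the fit the log2 fold change was between 0.51 and 0.84, the unadjusted p was under 0.05 in all 14, and the adjusted p ranged from 0.00506 to 0.586 and passed the threshold only with DESeq2. The lowest log2 fold change, 0.51, was without the third STZ sample. In FPKM the groups were also apart, with 12.9, 13.4 and 15.6 in vehicle and 20.4, 21.2 and 30.4 in STZ.

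Slc38a3 (SNAT3, chr9:107651154-107668968), the carrier through which astrocytes are known to release glutamine, had 889.97, 856.61 and 863.66 normalized CPM in vehicle and 677, 737 and 824 in STZ. All STZ samples were below the vehicle samples, and they spread more widely. STZ differed from vehicle by -0.22 ± 0.09 on the log2 scale (95% interval -0.44 to -0.0039), with an unadjusted p of 0.0469 and an edgeR adjusted p of 0.437. In 5 of the 6 edgeR fits that each left out 1 sample the unadjusted p was above 0.05 (0.0760 to 0.146). The exception was the fit without STZ replicate 3, with an edgeR adjusted p of 0.334. The deposited FPKM values ordered the samples in another way, with 275, 281 and 228 in vehicle and 189, 226 and 270 in STZ, and the groups overlapped. The transcript length implied by the ratio of counts to FPKM was not constant for this gene. It was 3014 to 3699 bases between samples, a ratio of 1.23, against 1.01 to 1.04 for the other 8 genes. It was longest in the third vehicle sample (3699) and the first STZ sample (3695), and shortest in the second vehicle (3014) and the third STZ sample (3073).

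Slc38a1 (SNAT1, chr15:96571418-96643438), known from neurons as an importer of glutamine, had 64.0, 77.2 and 92.5 normalized CPM in vehicle and 105, 86.5 and 73.4 in STZ. The groups overlapped, with a log2 fold change of 0.18 ± 0.17 (95% interval -0.21 to 0.57, edgeR adjusted p = 0.705). Relative to Slc38a3, Slc38a1 FPKM was 0.0373 ± 0.0115 in vehicle and 0.0518 ± 0.0189 in STZ (SD, n = 3; two-sided exact permutation test p = 0.3, adjusted 0.45). The difference of 0.45 on the log2 scale became 0.18 without the first STZ and 0.28 without the first vehicle sample, and 0.69 and 0.71 without the third vehicle and the third STZ sample. Of the summed FPKM of the 3 carriers, Slc38a2 held 4.36% to 6.10% in the vehicle and 8.20% to 9.83% in the STZ samples. Slc38a3 held 89.4% to 93.0% and 84.8% to 87.5%. Slc38a3 was the main transcript of the 3 in every sample, and neither of these shares overlapped between the groups. The shares are parts of the same sum and so are not separate results. The FPKM of Slc38a3 itself, with its varying implied length, overlapped between the groups.

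The samples also differed in endothelial transcripts. All 15 endothelial markers had a log2 fold change above 0 (51.9% of all genes), with a median of 1.10. Of these, 11 had an unadjusted p under 0.05 by edgeR (5.63% of all genes were higher at that p). Their summed level was 59.0, 88.3 and 200 FPKM in vehicle and 325, 259 and 191 FPKM in STZ, and these sums overlapped only through the third samples. The summed level of pericyte and smooth muscle markers took the same order of samples (37.4 to 59.5 FPKM in vehicle and 58.9 to 79.7 FPKM in STZ). Of these 10 markers, 9 had a log2 fold change above 0, and 5 were higher at an unadjusted p under 0.05 by edgeR. DESeq2 called 2 of the 15 endothelial and 5 of the 10 pericyte and smooth muscle markers, against 1.05% of all genes. Single markers did not all keep the order of the sums. Every STZ sample was above every vehicle sample for 7 of the 15 endothelial and 5 of the 10 pericyte and smooth muscle markers. This held for 8.64% of all genes tested. Slc1a1 followed the order of the sums except for an exchange of the lowest pair, and Slc38a1 was also lowest in the first vehicle and highest in the first STZ sample. Slc38a2 followed it among the vehicle samples and ran opposite to it among the STZ samples. The part of endothelial and mural RNA in the values of Slc1a1, Slc38a1, Slc38a2, Slc38a5 and Slc38a11 was not tested.

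**Figure D4:**
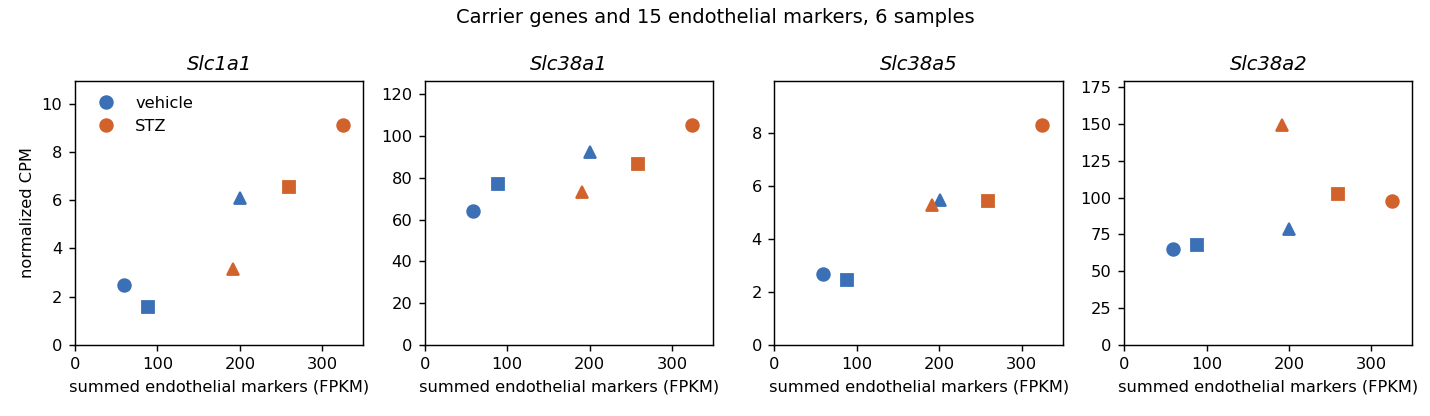
Normalized CPM (vertical, from 0) of Slc1a1, Slc38a1, Slc38a5 and Slc38a2 against the summed FPKM of 15 endothelial markers (horizontal), 1 point per sample, vehicle in blue and STZ in orange, with circle, square and triangle for replicates 1, 2 and 3. The sample with the highest endothelial sum (325 FPKM, orange circle) was the highest for Slc1a1, Slc38a1 and Slc38a5, while for Slc38a2 the highest was STZ replicate 3 (191 FPKM).

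The enzymes that join glutamate to 2-oxoglutarate showed no difference beyond the spread of the samples. Glud1 (chr14:34310727-34345033, plus strand), glutamate dehydrogenase of the mitochondrial matrix, had 447, 360 and 357 normalized CPM in vehicle and 391, 386 and 380 in STZ. All STZ samples fell between the lowest and the highest vehicle sample, the latter being the first one. Its log2 fold change was -0.01 ± 0.10 (95% interval -0.25 to 0.23, edgeR adjusted p = 0.980), and its sign changed with the setting. Got1 (chr19:43499752-43524605, minus strand), the cytosolic aspartate aminotransferase, had 70.3, 101.5 and 83.9 normalized CPM in vehicle and 66.5, 66.0 and 97.5 in STZ. Here the third STZ sample lay among the higher values of vehicle and the other two below all vehicle samples. The log2 fold change was -0.15 ± 0.19 (95% interval -0.59 to 0.28, edgeR adjusted p = 0.793), an interval that just reaches a 1.5-fold lower level.

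The wider pathway was read from 38 further genes, of which 33 were tested. No gene of the 33 passed the edgeR threshold, against 0.0224% of all genes tested. By DESeq2 1 passed it, Slc38a11, against 1.05% of all genes. At an unadjusted p under 0.05 there were 3 higher and 0 lower in STZ, against 5.63% and 5.65% of all genes tested. The log2 fold change was above 0 for 14 and below it for 19, against 51.9% above 0 over all genes, and the median was -0.06 against 0.01 over all genes. Groups did not overlap for 3 genes higher (Slc38a11, Gpt2 and Bcat2) and 1 lower in STZ (Gls2), against 8.64% and 9.85% of all genes. The glutamate transporter Slc1a7 and the carrier Slc38a4 were not tested; Slc38a4 was listed at 0 in all samples.

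Slc38a11, an amino acid carrier of the Slc38 family, had 1.85, 2.04 and 2.58 normalized CPM in vehicle and 4.67, 4.36 and 5.04 in STZ. The groups were apart at a low level. Their log2 fold change was 1.12 ± 0.21, with an unadjusted p of 0.000858, an adjusted p of 0.189 by edgeR and of 0.000277 by DESeq2. Slc38a5 (SNAT5), a further carrier of glutamine, had 2.69, 2.45 and 5.46 in vehicle and 8.29, 5.43 and 5.29 in STZ, with a log2 fold change of 0.84 ± 0.35 and an adjusted p of 0.434 by edgeR. Its groups overlapped, as the third vehicle sample was above STZ samples 2 and 3. Gpt2, the mitochondrial alanine aminotransferase, had 135.5, 114.9 and 129.4 normalized CPM in vehicle and 165.8, 155.0 and 144.7 in STZ. Its groups did not overlap, and its log2 fold change was 0.29 ± 0.09 (unadjusted p = 0.0112, edgeR adjusted p = 0.324).

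**Figure D5:**
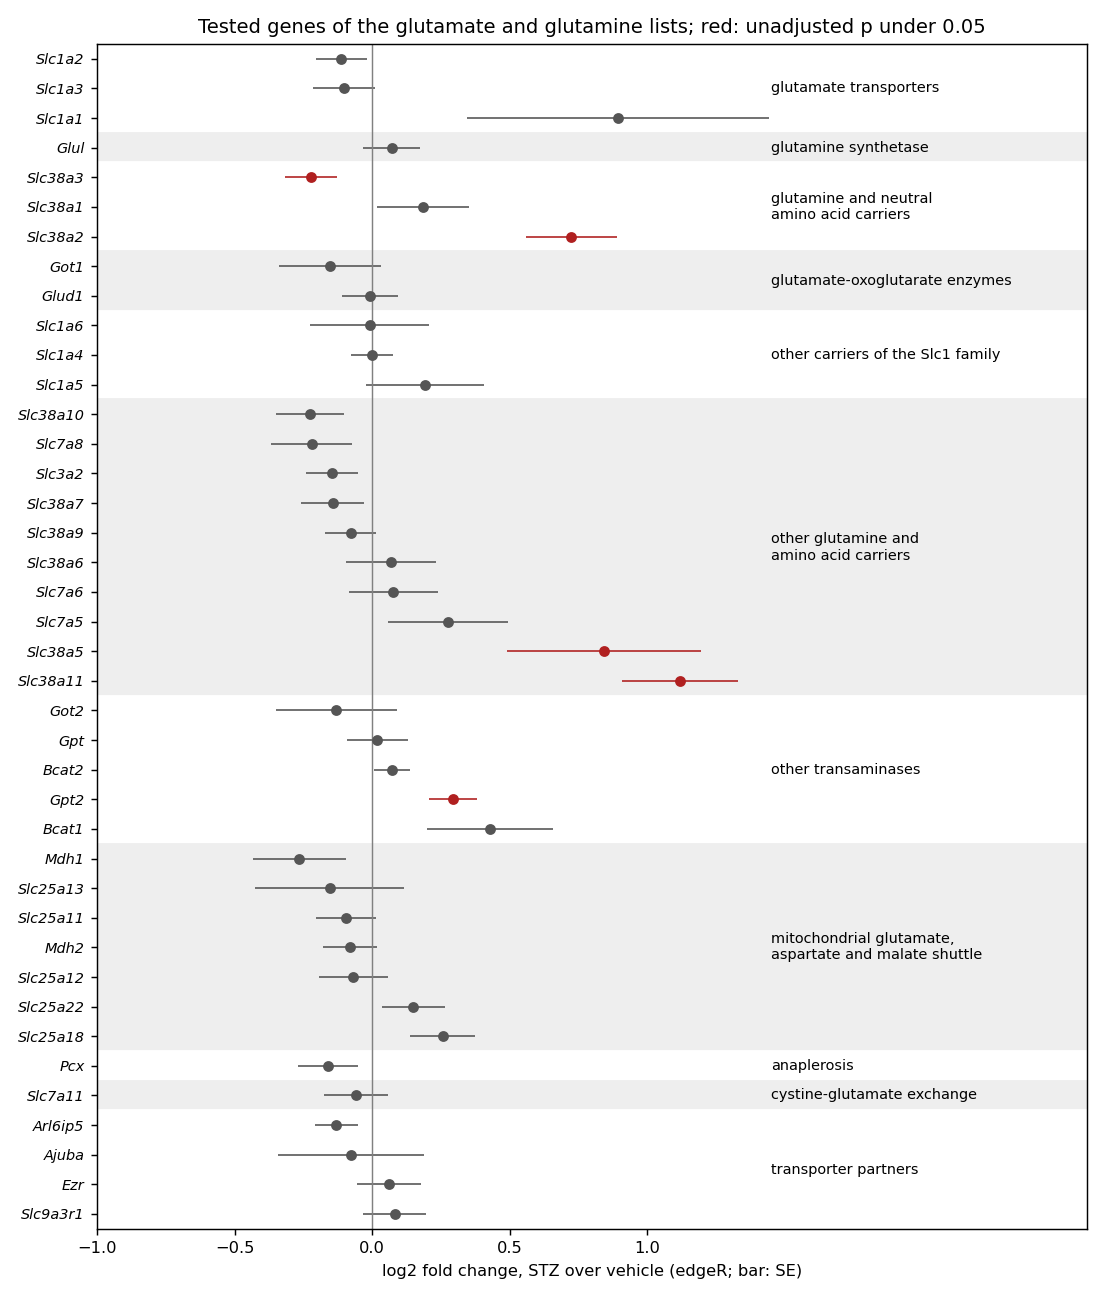
Log2 fold change of STZ over vehicle (horizontal; bars, SE from edgeR with 3 samples per group) of the 9 genes and of 31 of the 33 tested pathway genes (vertical), grouped by role, with unadjusted p under 0.05 in red. The red points are Slc38a3 at -0.22, Slc38a2 at 0.72, Slc38a5 at 0.84, Slc38a11 at 1.12 and Gpt2 at 0.29.

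None of the other tested pathway genes had an unadjusted p under 0.05 by edgeR. Of the other Slc1 carriers, the neutral amino acid exchanger Slc1a4 was the most abundant, at 100 to 112 FPKM, with a log2 fold change of -0.00035 ± 0.0758. Slc3a2, the shared heavy chain of several amino acid exchangers, stood at 319 to 389 FPKM and differed by -0.15 ± 0.09. Gls2, which turns glutamine back into glutamate, was low, at 0.105 to 0.248 FPKM. Of 7 genes of the mitochondrial glutamate, aspartate and malate shuttle, 2 had a log2 fold change above 0 and 5 below it. Slc25a18, a mitochondrial glutamate carrier, had 0.26 ± 0.12 (edgeR adjusted p = 0.470). Its groups were apart in FPKM (243 to 297 in vehicle, 325 to 386 in STZ) but overlapped in normalized CPM. The cytosolic malate dehydrogenase Mdh1 had -0.26 ± 0.17 (edgeR adjusted p = 0.582). Pyruvate carboxylase (Pcx), which replenishes the carbon needed for new glutamate, had -0.16 ± 0.11, and the cystine-glutamate exchanger Slc7a11 -0.06 ± 0.12. Among the partners of the transporters, Slc9a3r1 and Ezr were the most abundant (289 to 377 and 159 to 217 FPKM), with log2 fold changes of 0.08 ± 0.11 and 0.06 ± 0.12.

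Other astrocyte genes gave the setting of the transporter values. Of the 10 astrocyte markers, 3 had an unadjusted p under 0.05 and were lower in STZ, namely Aldh1l1 (log2 fold change -0.22), Aqp4 (-0.48) and Slc4a4 (-0.36), where 5.65% of all genes tested were lower at that p. Gjb6 was higher (0.27; 5.63% of all genes), and none of the 10 was called by edgeR. Markers of caudal regions and Bergmann glia, cells known for high Slc1a3, summed to 33.4 to 40.9 FPKM in vehicle and 42.0 to 51.9 FPKM in STZ without overlap. Most of that sum was Gdf10. Of the 7 markers, 3 had a log2 fold change above 0, against 51.9% of all genes, and 4 below it. In normalized CPM the groups did not overlap for 1 marker higher and 1 lower in STZ, against 8.64% and 9.85% of all genes. Telencephalic markers overlapped between the groups (72.8 to 79.8 and 68.0 to 83.8 FPKM). The part of the regional makeup in the transporter values was not tested.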

How the data were processed

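Sorted astrocytes of 3 vehicle and 3 STZ pools were compared, with groups taken from the labels. Per the submitters' processing notes, reads were trimmed with Trimmomatic 0.38, aligned to mm10 with HISAT2 2.1.0 and quantified with StringTie 2.1.3b; the annotation release is not given in the sources used here. The labels and the methods name different library kits. The authors deposited a whole-number read count per gene without normalization, an FPKM value (per length and mapped reads) and a TPM value (a share of all transcripts, with the same total in each sample). Total counts were 52529048 to 58749115 per sample, so precision was limited by the number of pools rather than by depth for all but the lowest genes. P-values measure only the spread between these pools.

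Genes with a 0 in any sample were left out, as in the study's methods, and the other 22337 were fitted by group with the two-sided quasi-likelihood test of edgeR 4.0.16 (R 4.3.3) after TMM scaling, with Benjamini-Hochberg adjustment. Normalized CPM used the TMM-scaled library sizes. DESeq2 1.42.0 and limma 3.58.1 on log2(TPM + 1) and log2(TPM + 0.1) were among the alternatives. The procedures were tested on simulated data. Ratios used FPKM. Figures and tables were made in Python 3.11.15. Positions and promoters are from RefSeq GRCm38.p6.

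The members and lists were chosen with earlier results of these data known. Named genes were the 9 members, pathway genes with an unadjusted p under 0.05 or called by DESeq2 and up to 3 of the most abundant per list, and the 3 profiles closest to Slc1a2, Slc1a3 and Glul. Aldh1l1, Aqp4, Slc4a4, Gjb6, Gdf10, Bcat2, Gls2 and the untested genes were named after their values were seen. Some genes that the rule names are not reported here.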

Additional observations from a re-analysis of the deposited data

How the results depend on the processing

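Of the log2 fold changes of the 9 genes, those of 8 kept their direction in all 14 alternatives, and for 7 of these the side of the threshold too; Slc38a2 passed it with DESeq2, at 0.72. Glud1 changed sign, to 0.0106 with limma on log2(TPM + 1) and 0.0106 on log2(TPM + 0.1), and ranged from -0.0802 to 0.102 when single samples were left out. The Slc1a2 to Slc1a3 ratio ranged from -0.0353 to 0.00743 on the log2 scale in that way. The other two ratios kept their direction, although Glul to Slc1a2 had p = 0.3 in place of 0.1 from counts (exact permutation test).

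Over all genes, 5 calls became 234 with DESeq2, 10 with a robust fit, 7 without the filter on low counts or with filterByExpr, 5 with DESeq2's size factors, 0 with either limma fit, and 0 to 1 without single samples. The count of members at an unadjusted p under 0.05 was 1 rather than 2 with each limma fit and 1 to 2 without single samples. The second member was not always the same gene: it was Slc38a3 in the main fit and Slc1a1 without vehicle replicate 3. The count of pathway genes ranged from 1 to 5. Of all 22337 genes tested, 2519 reached that p in the main fit, 2635 and 2612 with the limma fits, and 1693 to 2782 without single samples. Same-numbered samples of both groups did not deviate together (correlations -0.101, -0.162 and -0.184), and no sample correlated best with the one of its own number. With so few samples this check cannot exclude a pairing by number. With the replicate number as a block there were 0 calls and 1 member at that p, which 1793 of all genes tested reached. The cause of these shifts was not tested. With 3 pools a group, an interval that spans 0 does not exclude a change of any size within it. That of Slc1a1 (82 to 553 counts) was wide.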
